A study of Mus musculus with 115 samples.

Results

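The granins and the enzymes that mature prohormones were measured as 9 genes, and all 9 were found among the 45699 genes of the table by matching their symbols to Ensembl mouse gene identifiers. They are the granins Chga, Chgb, Scg2, Scg3, Scg5 and Vgf, and the processing enzymes Pcsk1, Pcsk2 and Cpe. Their levels were followed over all 115 libraries and set against Mki67, a nuclear protein of cycling cells, and Tgm4, a transglutaminase secreted by the prostate. All libraries came from transgene-positive (TRAMP x WSB/EiJ) F2 males and form 1 labelled group, with no control group. In the TRAMP transgene a probasin promoter, which is active in prostate epithelium and responds to androgen, drives the SV40 T antigen, and the other parent, WSB/EiJ, is an inbred strain derived from wild mice. RNA came from bulk tumor, or from the ventral prostate where the prostate was small, and which libraries were which was not used here. The age of each mouse was not used here either.

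Granins are acidic proteins of the dense core granule, the organelle from which endocrine cells and neurons release peptide hormones on demand. Chga and Chgb are its bulk matrix proteins, Scg2 and Vgf are also precursors of bioactive peptides, Scg3 helps to sort Chga to the granule, and Scg5 is the chaperone (7B2) that keeps the proconvertase Pcsk2 soluble until it is active. Pcsk1 and Pcsk2 cut prohormones after paired basic residues, and Cpe, carboxypeptidase E, trims the basic residues that this leaves. In the prostate, chromogranin A is a standard marker of neuroendocrine cells, which are rare in the normal gland and make up neuroendocrine carcinoma. Sympathetic and sensory nerve fibers of the gland carry granins too.

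On GRCm38 with the GENCODE M21 annotation, Chga (ENSMUSG00000021194) spans chr12:102554969-102565028 and Chgb (ENSMUSG00000027350) chr2:132781278-132795079. Scg2 (ENSMUSG00000050711) spans chr1:79434669-79440120 and Scg3 (ENSMUSG00000032181) chr9:75643189-75684056. Scg5 (ENSMUSG00000023236) spans chr2:113776362-113829121 and Vgf (ENSMUSG00000037428) chr5:137026392-137033351. Pcsk1 (ENSMUSG00000021587) spans chr13:75089826-75134861, Pcsk2 (ENSMUSG00000027419) chr2:143546156-143816285 and Cpe (ENSMUSG00000037852) chr8:64592542-64693054. Chga, Chgb, Vgf, Pcsk1 and Pcsk2 lie on the plus strand and the other 4 on the minus strand. Exons of 8 of the 9 members shared no base with an exon of another gene. Of the 7910 exonic bases of Pcsk2, 359 are shared with the antisense genes Pcsk2os1 and Pcsk2os2, and the library kit does not mark strand, so reads there cannot be told apart. Of the 4555 exonic bases of Tgm4, 1137 are shared with Zdhhc3 and Gm49323.

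Promoter sequences are shown because a cyclic AMP response element, the binding site of CREB-type factors, is a known feature of granin promoters. The RefSeq promoter table (GRCm38.p6, 250 bases before to 50 after each gene start) held 7 of the 9 members, and Vgf and Cpe were missing entries. The full element TGACGTCA, searched on both strands, was in the promoters of Chgb, Scg2 and Pcsk1, which is 3 of 7, and in 1.79% of all 32851 promoters of that table. Chga held the related letters TGACGTAA, as did 0.499% of all promoters. Below, Chga is shown as the 100 bases before its RefSeq start (chr12:102554841-102554940, plus strand) and Pcsk1 as 100 bases from 131 to 32 before its RefSeq start (chr13:75089726-75089825, plus strand). Chgb (chr2:132781559-132781588, plus strand) and Scg2 (chr1:79440076-79440105, minus strand) are shown as 30 bases around the element, and capitals mark the element in each. The stretches of Chgb and Scg2 precede the RefSeq start but lie after the GENCODE start, inside the gene spans given above.
Chga: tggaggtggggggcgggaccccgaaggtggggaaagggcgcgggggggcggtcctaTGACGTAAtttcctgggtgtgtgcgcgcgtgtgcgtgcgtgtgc
Pcsk1: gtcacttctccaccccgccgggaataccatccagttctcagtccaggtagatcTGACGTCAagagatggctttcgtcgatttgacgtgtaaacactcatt
Chgb: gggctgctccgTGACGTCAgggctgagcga
Scg2: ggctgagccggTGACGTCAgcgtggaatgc
The element began 44 bases before the RefSeq start in Chga, 78 in Pcsk1, 72 in Chgb and 68 in Scg2. The E box CAGCTG was found before the RefSeq start in Chga and Pcsk2 and after it in Chgb, and in 16.3% of all promoters. TATAAA was found in Chga, after its RefSeq start, and in 13.6% of all promoters. These matches are descriptions of the sequence and say nothing of binding in these tumors.

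The libraries fell into separate parts on the first principal component of expression, computed over 14613 genes without the members, Mki67 and Tgm4, which held 48.6% of the variance. The larger part held 79 libraries and the smaller part 36, and 68 and 17 of these, in that order, had labels beginning with 4. Prostate luminal markers summed to between 312 and 152881 TPM in the larger part and between 5.43 and 2651 TPM in the smaller. The parts were not labelled by the study, so their values are given as ranges, correlations were computed within each, and neither was tested against the other. TPM counts transcripts relative to a fixed total in each library, after scaling to gene length, and keeps no read depth, so the precision of a single value is unknown. The 20 most abundant genes took between 48.9% and 81.8% of a library's TPM, and that share moves the TPM of every other gene. Genes of the X chromosome were listed at low values, where 14.4% of 938 protein-coding genes reached 1 TPM in 50% of the libraries, against 55.3% of 20381 on the autosomes. All 9 members are autosomal, while Pcsk1n of the lists below is X-linked.

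Chga ranged from 0.0600 to 479 TPM over the 115 libraries with a median of 0.570 TPM. It was at 10 TPM or more in 32 libraries and at 100 or more in 7, and all of these were in the smaller part. Its highest value in the larger part was 4.84 TPM and its median there 0.300 TPM. The smaller part ran from 0.150 through a median of 57.2 to 479 TPM. No library lay between 4.84 and 21.15 TPM. The mixture rule used here (a fit of 2 normal distributions against 1) also separated Chga, but into 78 low and 37 high libraries, so that its high side took in 5 libraries below that gap, at 1.83 to 4.84 TPM. In bulk tissue, fewer cells of a type and less RNA per cell cannot be told apart.

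Chgb, the second bulk granin, had a median of 0.140 TPM and a maximum of 292 TPM, and 2 libraries listed it at 0. It was at 10 TPM or more in 32 libraries, of which 31 also had Chga at that level. The exception with Chgb was W1915, at 20.1 TPM with Chga at 1.23 TPM, and the exception with Chga was W4419, at 21.15 TPM with Chgb at 9.49 TPM. Chgb exceeded Chga in the smaller part in 8 of 36 libraries, and in the larger part in 7 of 79.

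Scg3, the sorting partner of Chga, was at 10 TPM or more in 31 libraries, never above 41.6 TPM, and at 0.65 TPM or less in all but 7 of the 79 libraries of the larger part. Its median in the smaller part was 25.2 TPM with 10% and 90% quantiles of 3.92 and 32.4 TPM. The 31 libraries all had Chga at 10 TPM or more, and the remaining library with high Chga was again W4419, with Scg3 at 7.75 TPM.

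Scg5, the Pcsk2 chaperone, reached 1 TPM in 58 libraries, against 42 for Chga, while at 0.1 TPM the counts were 94 and 108, and its median over all libraries was 1.00 TPM. It was at 10 TPM or more in 35 libraries, of which 32 had high Chga. The other 3 were W4360 at 21.3, W5001 at 13.1 and W4219 at 13.0 TPM, all in the larger part with Tgm4 at 1122 TPM or more. Within the smaller part it ran from 0.0900 through a median of 39.6 to 103 TPM and exceeded Scg3 in 35 of 36 libraries.

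Scg2 and Vgf, both peptide precursors, were more uneven. Scg2 read 0 in 7 libraries but 176 TPM in W1512, 166 in W897, 117 in W1052 and 72.8 in W407. Only 15 of the 36 libraries of the smaller part had Scg2 at 10 TPM or more, and its median there was 6.58 TPM. Vgf was listed at 0 in 13 libraries, all in the larger part, and had a median of 2.11 TPM in the smaller part. It passed 10 TPM in 2 libraries, W1512 at 20.7 and W247 at 16.0 TPM, and both had Scg2 above 30 TPM. Scg2 did not separate by the mixture rule over all libraries, because its components overlapped, and Vgf was at the limit of that rule (Ashman D of 2.02 where over 2 was required).

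Among the enzymes, Cpe was present throughout. It ranged from 2.28 to 194 TPM with a median of 29.8 TPM and was at 10 TPM or more in 103 libraries. A single normal distribution described its log2 levels better than a mixture, unlike the other 8 members. It was the highest of the 9 members in all 79 libraries of the larger part, where it ran from 5.37 to 66.3 TPM. The smaller part ran from 2.28 to 194 TPM, and the ranges of the parts overlapped widely.

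The proconvertases were low in most libraries. Pcsk1 had a median of 0.10 TPM and was at 10 TPM or more in 7 libraries only. These were W1065 at 295, W370 at 118, W4419 at 91.6, W1182 at 52.3, W1512 at 40.5, W992 at 32.4 and W4417 at 13.5 TPM. All 7 were in the smaller part and had Chga at 21.15 TPM or more, but the other 29 libraries of that part had Pcsk1 between 0.0300 and 6.32 TPM. Pcsk2 passed 10 TPM in W1065 alone, at 14.8 TPM, and had a median of 0.795 TPM in the smaller part and 0.0800 TPM in the larger. Pcsk1 exceeded Pcsk2 in 16 of 36 libraries of the smaller part and in 40 of 79 of the larger.

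**Figure D1:**
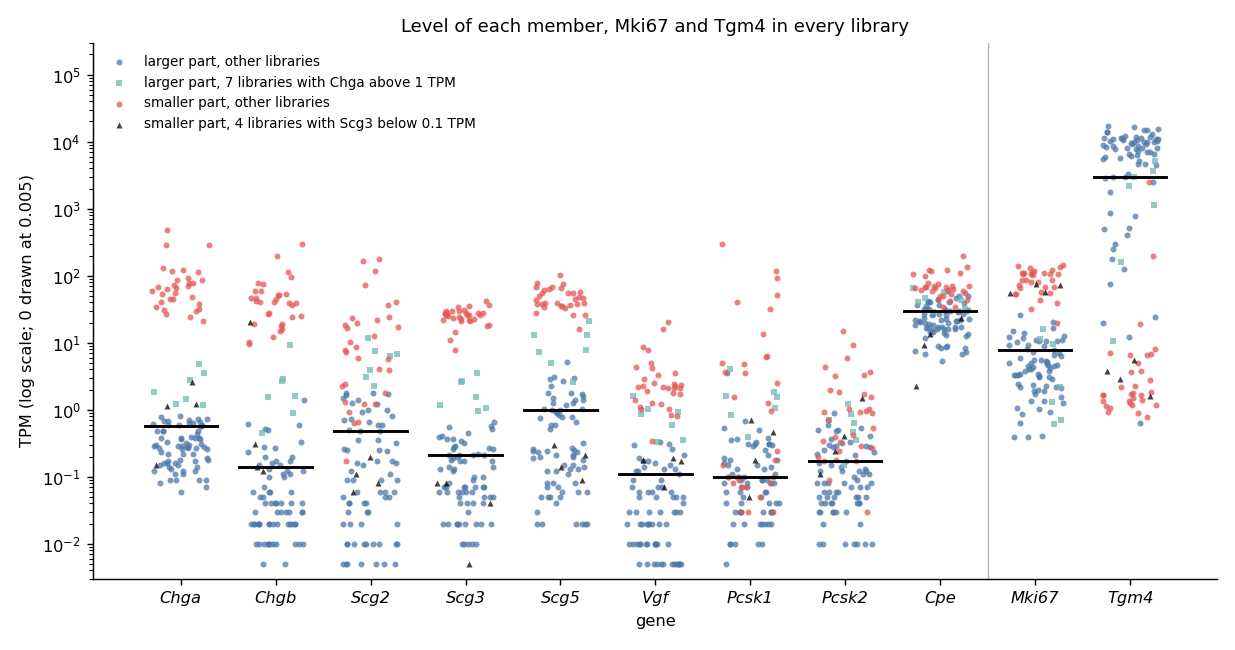
Level of the 9 members, Mki67 and Tgm4 in each of the 115 libraries (points, TPM on a log axis, values of 0 drawn at 0.005; black bars, medians over all libraries; colors, the parts of 79 and 36 libraries, with 7 and 4 libraries that stand apart in them marked). Chga leaves a gap between 4.84 and 21.15 TPM, the levels of Scg5 and Cpe run on without one of that size, and Pcsk1 is high in 7 libraries of the smaller part.

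By median level in the smaller part the members followed the order Cpe at 64.5, Chga at 57.2, Scg5 at 39.6, Chgb at 39.1, Scg3 at 25.2, Scg2 at 6.58, Vgf at 2.11, Pcsk2 at 0.795 and Pcsk1 at 0.580 TPM. The spans from the 10% to the 90% quantile of each pair of neighbours in that order overlapped. All members were measured in the same libraries, so this overlap does not show whether neighbours differ within a library, which was not tested. Among the larger part Cpe led with a median of 22.2 TPM and a 10% quantile of 8.83 TPM, above the 90% quantile of each other member. There Chga at 0.300 and Scg5 at 0.260 TPM came next, and Vgf at 0.0300 TPM was last. TPM is per length, so these levels can be set side by side between genes.

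The number of members at 1 TPM or more ran from 1 to 9 in the smaller part and from 1 to 8 in the larger, so the parts overlapped. Every one of the 9 reached 1 TPM in 7 libraries, all in the smaller part. A further 12 libraries of that part had 8 and 10 had 7, but W1118 had 1, W1050 and W1790 had 2 and W1915 had 4. Of the larger part, 50 of 79 libraries had only 1 such member, and it was Cpe in each. Another 5 had 7 or 8. Cpe and Scg5 were the 2 members that reached 1 TPM in 50% of all libraries.

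Against Mki67, Chga, Chgb and Scg3 at 10 TPM or more occurred only in libraries with Mki67 at that level, but the reverse did not hold. All 32 libraries with Chga at 10 TPM or more had Mki67 at 10 TPM or more, while 20 libraries had such Mki67 with Chga below 10 TPM. The same counts were 32 and 20 for Chgb and 31 and 21 for Scg3. Of 35 libraries with such Scg5, 32 had high Mki67, and of 16 with such Scg2, 15 had it. Mki67 ran from 20 to 144 TPM in the smaller part and from 0.390 to 25.7 TPM in the larger. All 15 libraries with Mki67 at 100 TPM or more had Chga, Chgb, Scg3 and Scg5 at 10 TPM or more, but none of the 15 had Pcsk1 at that level.

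Against Tgm4, Chga at 10 TPM or more and Tgm4 at 100 TPM or more rarely met. Of the 32 libraries with Chga at 10 TPM or more, 30 had Tgm4 below 100 TPM, while 73 libraries had Tgm4 at 100 TPM or more and Chga below 10 TPM. A further 10 libraries were low for both. The 2 libraries high for both were W4419, with Tgm4 at 195 and Chga at 21.15 TPM, and W4517, with Tgm4 at 2469 and Chga at 53.3 TPM. For Cpe, 67 libraries were at 10 TPM or more together with Tgm4 at 100 TPM or more. These joint counts are descriptions over 1 labelled group and carry no test.

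**Figure D2:**
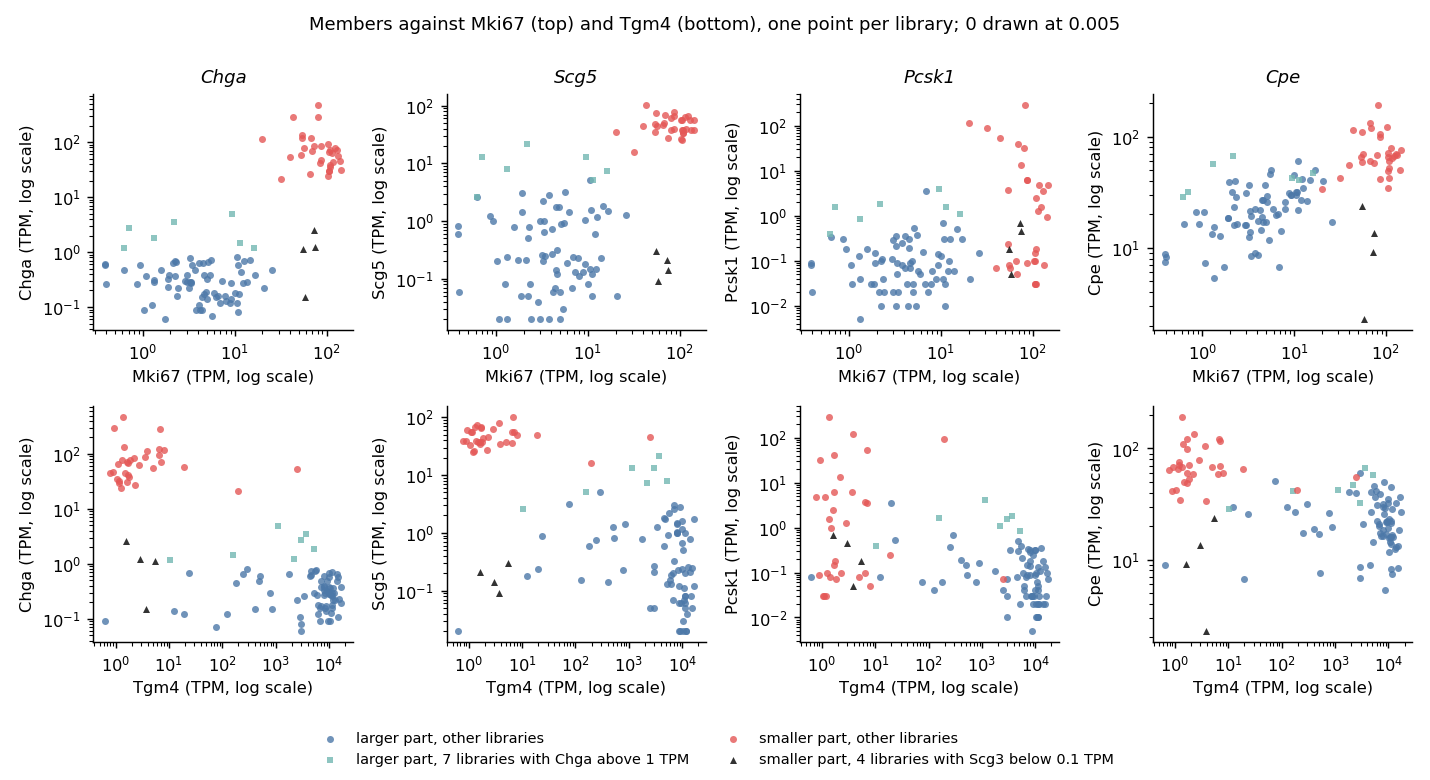
Chga, Scg5, Pcsk1 and Cpe against Mki67 (top) and Tgm4 (bottom), all in TPM on log axes, 1 point per library. The 32 libraries with Chga at 10 TPM or more lie at high Mki67, and 2 of them lie above 100 TPM of Tgm4. The 4 triangles have high Mki67 with low Chga, Scg5 and Cpe.

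Whether the members followed Mki67 from library to library was tested within each part by Pearson's r of log2(TPM + 1), with a permutation test (100000 permutations, two-sided) and Benjamini-Hochberg adjustment over all genes that averaged 1 TPM or more there. Over the 36 libraries of the smaller part 8 members could be counted, since Pcsk1 itself separated, and 0 of 8 passed an adjusted p of 0.05 against 27.3% of 15510 genes called positive and 17.6% called negative. At an unadjusted permutation p under 0.05, 3 of 8 were positive and 0 negative. The values of r ran from 0.0111 for Chga to 0.370 for Chgb, whose adjusted permutation p was 0.0578. By Spearman's rho 4 of 8 passed, namely Pcsk2 (0.455), Chgb (0.453), Vgf (0.443) and Scg3 (0.423), with adjusted permutation p from 0.0140 to 0.0247, where 27.2% of all genes were positive by rho and 23.2% negative. Chga, with rho of -0.138, did not. Leaving out the 2 libraries with the most distant Mki67 gave r from 0.0551 for Chga to 0.360 for Chgb and Scg2, with 0 of 8 called. Without those libraries 24.7% of all genes were positive and 27.4% negative.

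Pcsk1 had the only negative r with Mki67 in the smaller part, -0.380 (adjusted permutation p = 0.0485), which is not counted because its levels separated. Without the 2 libraries farthest in Mki67 it was -0.0807, so the relation rested on those libraries. The 7 libraries with high Pcsk1 had Mki67 between 20 and 81.3 TPM, and the other 29 between 39.7 and 144 TPM.

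Over the 79 libraries of the larger part only Scg5 and Cpe passed the filter on low values. Scg5 did so through the 7 libraries described below, with a mean of 1.53 TPM over the 79 and 0.699 TPM over the other 72, so its values there are a description. Cpe rose with Mki67 (r = 0.454, rho = 0.466, adjusted permutation p = 5.95e-05 for r and 4.09e-05 for rho, and r = 0.473 without the 2 farthest libraries), but 76.3% of 13413 genes were called positive there and 1.38% negative. With median-of-ratios scaling in place of TPM, 23.1% of genes were called positive and 19.7% negative, and Cpe was not (r = 0.173, adjusted permutation p = 0.212). Scg5 had r of -0.0122. Tgm4 separated within the larger part, so no correlation with it was computed there. In the smaller part Tgm4 had a median of 1.83 and a 90% quantile of 7.47 TPM. It was at 10 TPM or more in 3 of 36 libraries, with W4517 at 2469 and W4419 at 195 TPM. Over these 36 libraries 0 of 8 members were called with Tgm4, with r from -0.220 to 0.0257. At an unadjusted permutation p under 0.05 it was also 0 of 8, and 0.0387% of genes were called positive and 0.00645% negative. With so little spread of Tgm4 outside W4517 and W4419, the test cannot decide whether the members follow it.

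The members were correlated with each other in the smaller part. Over its 36 libraries 23 of 28 pairs of the 8 countable members were positive at an adjusted permutation p under 0.05, against 11.4% of all pairs of a member and another gene called positive and 17.7% negative. The adjustment was over all such pairs. Scg3 and Scg5 had the highest r, 0.963 (rho = 0.681, adjusted permutation p = 3.41e-04 for r and 0.00119 for rho). Chga had r of 0.884 with Scg5, 0.826 with Scg3, 0.822 with Cpe and 0.736 with Chgb. With the 2 libraries left out whose mean log2 level over the members was farthest from the median, the same 23 pairs passed. Of all pairs of a member and another gene, 5.52% were then positive and 5.69% negative. Scg3 with Scg5 gave r = 0.935.

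Part of these calls rested on 4 libraries, chosen after the values were seen as the low side of a fit of 2 components to Scg3 within the smaller part, which is fewer than the 6 that the mixture rule requires. W1118, W1790, W1915 and W1050 had Scg3 at 0.0800 TPM or less and Scg5 at 0.300 TPM or less, while the other 32 had Scg3 at 7.75 TPM or more and Scg5 at 16.0 TPM or more. Without these 4 libraries, a choice made after seeing the data, 14 of 28 pairs passed, all among the 23, against 9.85% of all pairs of a member and another gene. Chga then passed with 0 of 7 members, and its r fell to 0.0724 with Scg3, 0.372 with Chgb (adjusted permutation p = 0.163) and 0.471 with Scg5 (adjusted permutation p = 0.0596). Scg3, Scg5 and Cpe remained positive with each other, at r = 0.548 for Scg3 with Scg5, 0.605 for Scg3 with Cpe and 0.596 for Scg5 with Cpe (adjusted permutation p = 0.0229, 0.00927 and 0.0108). Chgb, Scg2, Vgf and Pcsk2 also remained positive with each other in all 6 pairs, from r = 0.515 for Chgb with Pcsk2 to 0.678 for Vgf with Pcsk2. Chgb also passed with Scg3, Scg5 and Cpe, and Vgf with Scg3 and Cpe. The 17 libraries of the smaller part whose labels begin with 4 gave 0 of 28 pairs, with r from -0.202 to 0.711 and a median of 0.424. In those fewer libraries 1.96% of all pairs of a member and another gene were positive and 0.229% negative. None of the 4 libraries is among those 17.

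**Figure D3:**
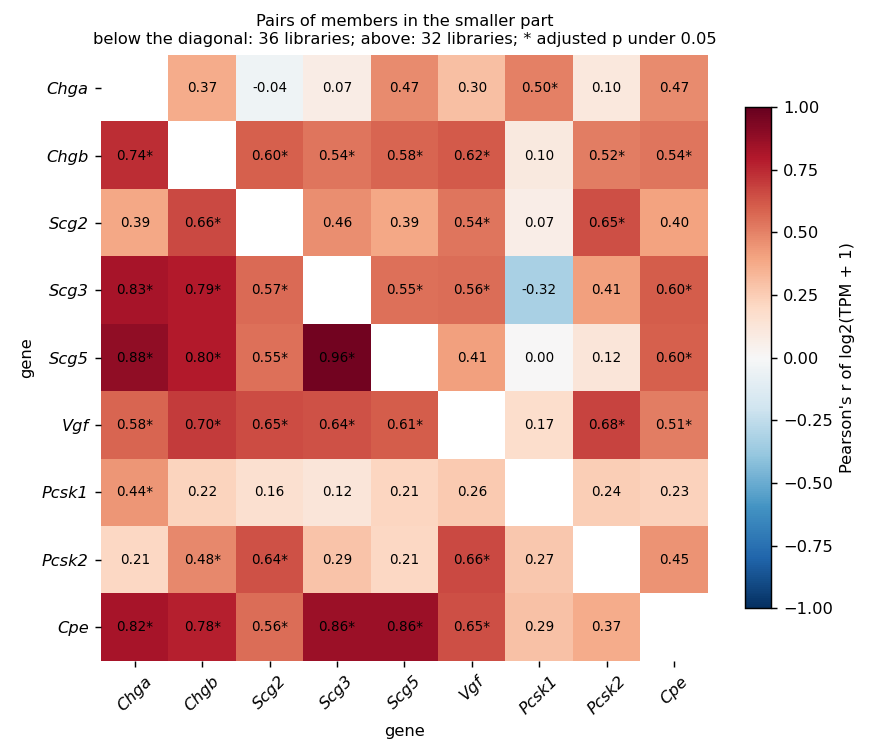
Pearson's r of log2(TPM + 1) for each pair of members in the smaller part, over 36 libraries below the diagonal and without 4 libraries above it (stars, adjusted permutation p under 0.05). Chga has 5 starred values with the 7 other countable members below the diagonal and none of them above it, while Chgb, Scg2, Vgf and Pcsk2 keep those with each other.

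The 4 libraries were proliferative, with Mki67 from 54.7 to 74.0 TPM. Their Chga was 0.150 in W1118, 1.15 in W1050, 1.23 in W1915 and 2.55 TPM in W1790, and their Cpe was between 2.28 and 23.6 TPM against 33.5 TPM or more in the other 32. Their 9 neuroendocrine markers other than the members summed to between 56.4 and 138 TPM against 189 to 805 TPM. Among these, Foxa2 was between 33.7 and 54.0 TPM in the 4 and between 0 and 62.9 TPM in the others. Insm1 did not exceed 1.91 TPM in the 4 and was never under 12.7 TPM in the 32, and Snap25 did not exceed 0.150 TPM and was never under 17.0 TPM. Stromal markers summed to between 520 and 1820 TPM in the 4 and 2.60 to 779 TPM in the others. Immune markers summed to between 82.4 and 230 TPM in the 4 and 8.24 to 160 TPM in the others, with a median of 37.8 TPM. For prostate luminal markers the sums were 728 to 1386 TPM in the 4 and 5.43 to 2651 TPM in the others, with a median of 36 TPM. The part of these in the low granin levels was not tested. In W1915 Chgb was the single granin above 10 TPM, and Uchl1, a neuronal ubiquitin hydrolase, was at 68.8 TPM.

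The mixture rule, applied to Chga within the larger part after the values were seen, set 7 libraries apart at 1.19 to 4.84 TPM, and the other 72 lay between 0.0600 and 0.810 TPM. They were W4219, W4360, W5001, W4492, W4443, W4292 and W5003. Scg2 exceeded Chga in 7 of these 7, with Scg2 between 2.27 and 11.6 TPM. Over the whole larger part it did so in 32 of 79 libraries, so this order was not limited to the 7. In the smaller part it did so in 5 of the 28 libraries with both at 1 TPM or more. In W4360 the levels were 3.56 for Chga, 11.6 for Scg2 and 21.3 TPM for Scg5. In W4219 they were 4.84 for Chga, 9.14 for Chgb and 4.00 TPM for Pcsk1. Their Mki67, from 0.620 to 16.1 TPM, lay inside the range of the other 72, from 0.390 to 25.7 TPM.

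Markers of peripheral neurons and glia moved with these 7 libraries. The 8 markers summed to between 25.0 and 111 TPM in the 7 and between 1.49 and 22.2 TPM in the other 72, without overlap. Prph, peripherin of peripheral neurons, was between 9.69 and 49.5 TPM in the 7 and at 9.27 TPM or less in the 72. Th and Dbh, which make noradrenaline, overlapped, with Th from 1.49 to 7.53 TPM in the 7 and up to 2.18 TPM in the 72, and Dbh from 1.22 to 4.70 TPM and up to 1.42 TPM. Seminal vesicle markers (medians of 3421 and 478 TPM), stromal markers (1181 and 749 TPM) and immune markers (67.6 and 37.0 TPM) were also higher by median in the 7, while proliferation markers (18 and 36.7 TPM) and Tgm4 (2204 and 7921 TPM) were lower, all with overlapping ranges. The 9 neuroendocrine markers summed to between 43.7 and 122 TPM in the 7 and between 2.80 and 31.8 TPM in the 72. Of that sum Uchl1 held between 23.6 and 80.8 TPM, Snap25 between 6.19 and 28.8, Ncam1 between 6.97 and 14.8 and Eno2 between 4.26 and 13.4 TPM, and neurons express these 4 too, while Insm1 and Foxa2 were at 0.05 and 0.0400 TPM or less. Prph was not limited to these libraries, and in the 32 libraries of the smaller part with high Scg3 it ran from 0.820 to 74.6 TPM. The part of any of these in these granin levels was not tested.

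**Figure D4:**
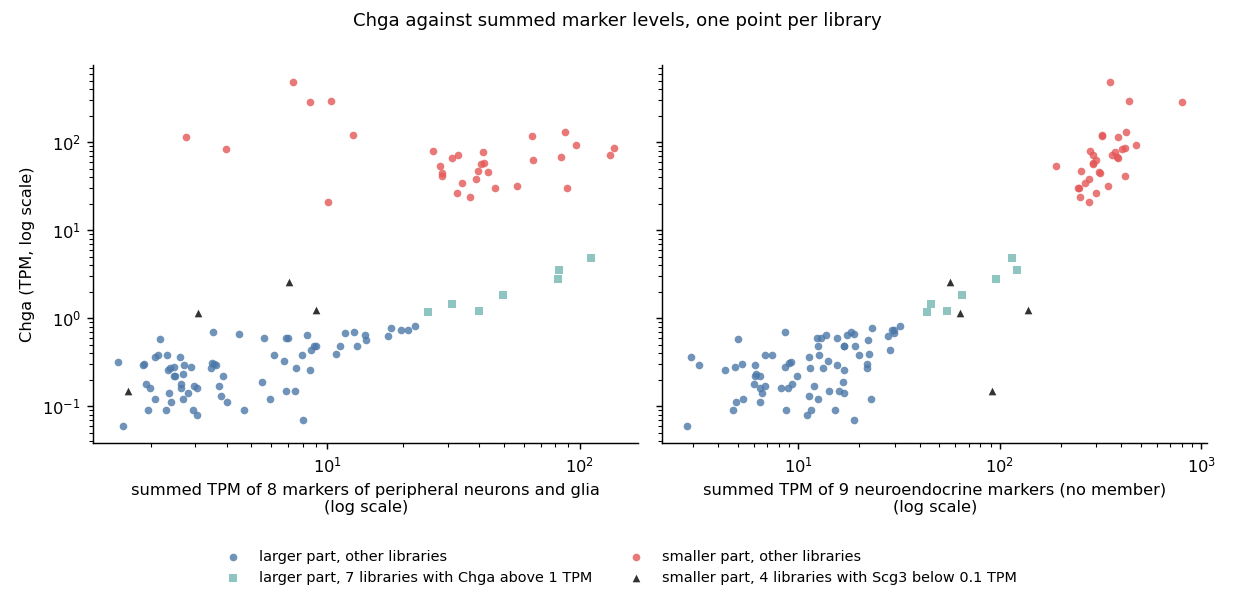
Chga in TPM against the summed TPM of 8 markers of peripheral neurons and glia (left) and of 9 neuroendocrine markers without the members (right), log axes, 1 point per library. The 7 squares have the highest Chga and neuron sums of the larger part (25.0 to 111 TPM), and the 4 triangles of the smaller part have neuron sums of at most 9.04 TPM.

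Without a filter on low values, all 15 of 15 pairs of the 6 countable members were positive in the larger part at an adjusted permutation p under 0.05, with r from 0.387 to 0.947, against 26.4% of all pairs of a member and another gene. Most of these levels were below 1 TPM, and the highest value of each of the 6 was in one of the 7 libraries. Without the 7 libraries, an alternative added after seeing the data, 11 of 15 pairs were positive over the other 72, against 21.6% of all pairs. These were the 10 pairs among Chgb, Scg2, Scg3, Scg5 and Vgf, with r from 0.491 for Scg5 with Vgf to 0.896 for Scg2 with Scg3, and the pair of Scg5 and Cpe. The other 4 pairs with Cpe had r from 0.191 to 0.283 (adjusted permutation p from 0.0669 to 0.254). The smallest levels are a few hundredths of a TPM, with unknown depth. Scg5 and Cpe, the pair left by the filter, had r = 0.509 and rho = 0.470 over the 79 libraries, given as a description because Scg5 passed through the 7. Of all pairs of either with another gene, 68.0% were called positive there and 0.637% negative. W4183 had Pcsk1 at 3.49 TPM with Pcsk2 at 0.0100 and Chga below 1 TPM, the highest Pcsk1 of the other 72.

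The libraries with high Pcsk1 differed among themselves in the other granins. W1065 held the highest Chga (479 TPM), Pcsk1, Pcsk2 and Cpe (194 TPM) of all libraries. W1512 held the highest Chgb (292 TPM), Scg2 and Vgf with Chga at 68.1 TPM. In W370 Pcsk1 at 118 TPM was level with Chga at 115 TPM, while Scg3 was at 11.04 and Chgb at 15.1 TPM. In W4419 Pcsk1 at 91.6 TPM was the highest member, above Cpe at 42.7 TPM. In W1182 Chga was at 284 and Scg5 at 103 TPM, its maximum, while Pcsk2 was at 0.0300 TPM. The neuron and glia markers summed to 84.2 TPM in W1512 but to between 2.76 and 10.4 TPM in the other 6, and over the 29 libraries with lower Pcsk1 they ran from 1.63 to 136 TPM. Luminal markers (medians of 373 TPM in the 7 and 35 TPM in the 29) and stromal markers (366 and 163 TPM) were higher by median with high Pcsk1, and proliferation markers (467 and 606 TPM) lower, and their part in these levels was not tested.

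**Figure D5:**
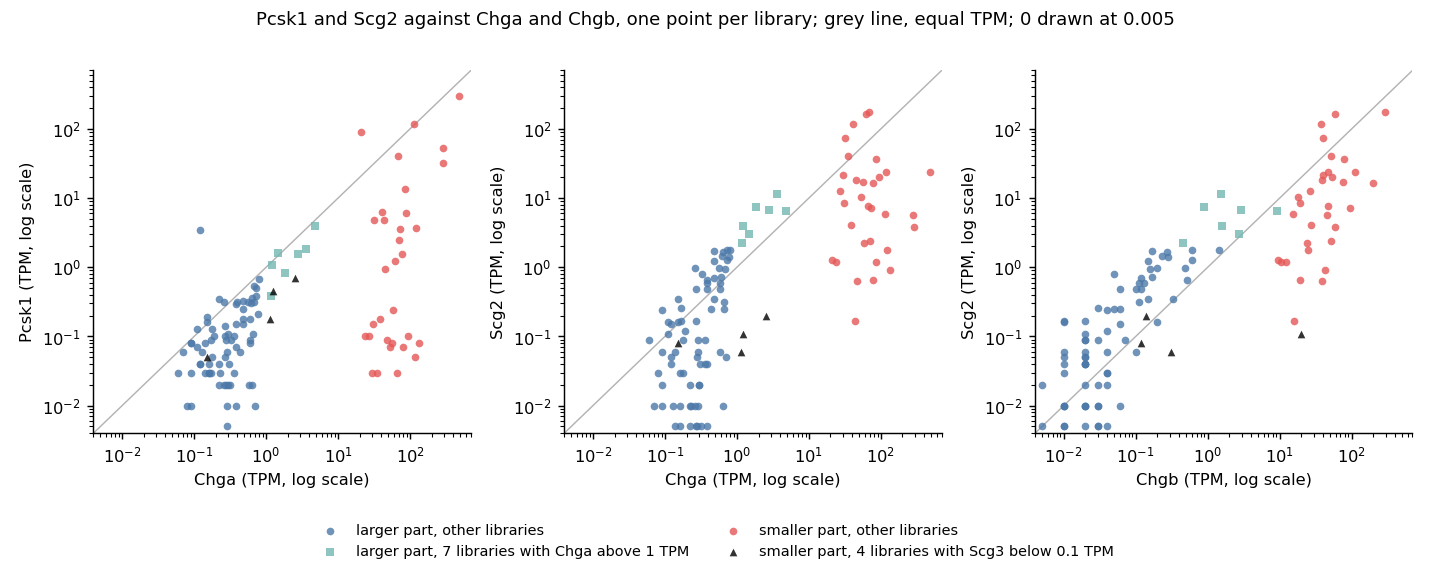
Pcsk1 against Chga (left), Scg2 against Chga (middle) and Scg2 against Chgb (right) in TPM on log axes, 1 point per library, with a grey line of equal level. At Chga above 20 TPM, Pcsk1 spans 0.0300 to 295 TPM. The 7 squares lie above the line in the middle panel, with Scg2 from 2.27 to 11.6 TPM. Other libraries of the larger part lie above it too.

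Of 22 further genes of prohormone processing and the dense core granule, 14 reached 1 TPM in 50% of the libraries. Enzymes with general duties were present throughout, such as Pam, which amidates peptides, from 7.77 to 101 TPM, Furin from 1.2 to 17.2 TPM and Cpd from 8.77 to 37.4 TPM. Within the smaller part 18 of the 22 were tested, 3 rose and 5 fell with Mki67 (beside 27.3% and 17.6% of all genes), and 28 of their 144 pairs with a member were positive (19.4%, beside 11.4% for all genes) and 10 negative (6.94%, beside 17.7%). Resp18 was positive with 8 of 8 members, the granule membrane protein Ptprn2 with 7, Baiap3 with 6 and Ptprn with 5, whereas Furin was negative with 5. Without the 4 libraries these were 2, 2, 1 and 4 positive and 0 negative for Furin, and 20 of the 144 pairs were positive (13.9%, beside 9.85%). Cadps, a granule priming factor, rose with Mki67 (r = 0.724, adjusted permutation p = 1.16e-04) and passed with 0 of 8 members, or with 2 without the 4 libraries. Slc18a2, the vesicular monoamine transporter, reached 161 TPM in W370, 17.4 in W4419 and 12.7 in W1065, all with high Pcsk1, and was below 10 TPM elsewhere. Pcsk1n, an X-linked inhibitor of Pcsk1, reached 1 TPM in 1 library. Within the larger part 15 of the 22 were tested, 11 rose and 2 fell with Mki67 (beside 76.3% and 1.38% of all genes).

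Of 32 peptide hormone and neuropeptide precursors, the substrates of these enzymes, 9 stayed below 1 TPM in every library, namely Gast, Gcg, Ghrl, Pyy, Ppy, Ins1, Ins2, Pnoc and Ucn. The precursor with the highest level was Nmu, neuromedin U, at 168 TPM in W1182, and it was at 10 TPM or more in 16 libraries of the smaller part and 0 of the larger. Iapp (61.8 TPM), Cck (53.2 TPM) and Pdyn (43.2 TPM) each peaked in W1065, the library with the highest Chga and Pcsk1. Iapp was also at 40.4 TPM in W370. Calca peaked in W992 at 77.1 TPM. Npy and Vip, which nerve fibers carry, peaked instead in W4219 of the larger part, at 149 and 95.3 TPM, and Cartpt in W4360 at 13.6 TPM. Other neuropeptide precursors peaked outside the 7 libraries that stood apart in that part. Tac1 peaked in W4079 of the larger part at 84.8 TPM. Gal peaked in W462 at 14.4 TPM and Adcyap1 in W1512 at 9.28 TPM, both of the smaller part. In the smaller part 12 precursors were tested, and 1 rose and 1 fell with Mki67 (beside 27.3% and 17.6%). Of their 96 pairs with a member, 21 were positive (21.9%, beside 11.4%). The 7 negative pairs (7.29%, beside 17.7%) were all of Adm, adrenomedullin. Without the 4 libraries 10 of 96 were positive (10.4%, beside 9.85%) and 0 negative. Of these precursors 8 were tested in the larger part, 2 rose and 0 fell with Mki67 (beside 76.3% and 1.38%).

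The genes most like each member were taken as the 3 with the highest Spearman rho in a part where the member had a median of at least 10 TPM, as a description. In the smaller part (36 libraries, 15502 genes) Chga was closest to Ddc, the decarboxylase of serotonin and dopamine synthesis (rho = 0.803), then Abhd15 (0.768) and Gnptg (0.762). Ddc ran from 0.290 through a median of 104 to 493 TPM there. Chgb was closest to Mpp3 (0.829), St3gal5 (0.824) and Alg2 (0.816), and Scg3 to Ccl27a (0.927), Trim37 (0.858) and Tmx4 (0.845). Scg5 was closest to Fam131a (0.889), Ly6h (0.886) and Arf2 (0.865), and Cpe to Zfp251 (0.924), Cenpv (0.904) and Dnajc18 (0.891). No gene appeared for more than 1 member. In the larger part Cpe, the only member above that level, was closest to Lynx1 (0.856), Fgfr2 (0.797) and Mid1ip1 (0.797).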

How the data were processed

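After ribosomal RNA depletion and sequencing (CASAVA 1.8.2 in the submitters' processing notes), reads were trimmed by the authors and aligned with Bowtie2 2.2.5 to transcripts carrying the C57BL/6 and WSB alleles. Genes were then quantified by RSEM 1.2.20. The deposited values are TPM for 115 libraries of 1 group, each with a mouse label of its own. These are more libraries than the study describes, and which of them it used was not given in the sources used here. The annotation used was not given in the sources used here. P-values measure the spread between these libraries.

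The members and gene lists were chosen with earlier results of these data known. The genes named are the 9 members, Mki67, Tgm4, listed genes, and for each member with a median of at least 10 TPM in a part its 3 nearest genes. Libraries or levels counted as separate where, on log2(TPM + 1), a fit of 2 normal components beat 1 with a BIC lower by more than 10, had Ashman D above 2 and left 6 or more on each side. Pearson's r was tested with 100000 two-sided permutations, with Benjamini-Hochberg adjustment over every gene averaging 1 TPM or more. The smallest p this allows is 1.00e-05. Alternatives were a pseudocount of 0.1 TPM, Spearman's rho, TPM rescaled without the top 20 genes, median-of-ratios scaling, no filter, without the 2 farthest libraries, labels starting with 4, the first component of the part removed, other thresholds and, added later, without libraries that stood apart. Marker lists were neuroendocrine, prostate luminal, neuron and glia, proliferation, stroma, immune and seminal vesicle. Some listed genes are not reported here by name. Scripts were tested on simulated data. The software was matplotlib 3.10.9, scikit-learn 1.9.0, pandas 2.3.3, scipy 1.17.1, numpy 2.4.6 and Python 3.11.15.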

Additional observations from a re-analysis of the deposited data

How the results depend on the processing

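TPM holds no depth, so values near 0 cannot be told from absence, and libraries of 1 labelled group allow no comparison of conditions. No paired analysis was possible because there is 1 labelled group only. Of 89 alternatives to 12 results, 66 left the count within 1.5 times and 23 moved it, and the causes were not tested unless stated. The number of members that reached 1 TPM in 50% of the libraries (2) was 4 when rescaled without the top 20 genes, which raises every value, 1 among labels starting with 4 and 9 at a threshold of 0.1 TPM. The number of libraries with every member at 1 TPM or more (7) was 16, 1 and 38 under the same settings, and that with Chga at 10 TPM or more (32) was 17 among labels starting with 4, which are fewer libraries. In the larger part, 1 member was positive with Mki67 and 0 negative. This became 0 positive with median-of-ratios scaling, where 23.1% of all genes were positive and 19.7% negative. Rescaled without the top 20 genes it was also 0 (30.9% and 8.62%), as it was with the first component removed (14.0% and 21.3%). With that component removed Scg5 had r = -0.469, a description because it passed the filter through the 7 libraries that stood apart. The single pair in the larger part, which includes Scg5 and is a description, became 3 when rescaled, because Scg2 then passed the filter. Of all pairs of a member and another gene, 30.3% were positive when rescaled, beside 68.0% before. The count was 15 with no filter (26.4%) and 11 with no filter and without the 7 libraries that stood apart (21.6%). In the smaller part, 0 positive members with Mki67 became 1 of 8 with a pseudocount of 0.1 TPM (27.7% of all genes positive), 2 with median-of-ratios scaling (27.5%), 5 when rescaled without the top 20 genes (41.1%), 4 by Spearman's rho (27.2%), 1 among labels starting with 4 (18%) and 1 without the 4 libraries that stood apart (Scg3, r = 0.605, 28.8%). With the first component removed, 3 became negative (Chga, Scg3 and Scg5), beside 3.76% of all genes negative and 35.4% positive. No alternative moved the counts with Tgm4, but it was low in nearly all libraries of that part, so these counts cannot decide whether members follow it. The 23 positive pairs (beside 11.4% of all pairs of a member and another gene) became 0 among the 17 labels starting with 4 (1.96%). Without the 4 libraries that stood apart 14 passed (9.85%). The count was between 17 and 24 otherwise, where that share ran from 4.66% with no filter to 21.7% when rescaled without the top 20 genes.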
